A study of Homo sapiens with 6 samples.

Results

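The 9 genes described here encode the type I interferon receptor, the kinases bound to it, the transcription factors it activates and inhibitors of the pathway, and their RNA was measured in U-2 OS cells with and without depletion of SFPQ. They were chosen by name: IFNAR1, IFNAR2, JAK1, TYK2, STAT2, IRF9, IRF7, USP18 and SOCS1 each have 1 row among the 60664 genes of the count table. U-2 OS is a human osteosarcoma cell line, labelled as polyploid, and SFPQ is a nuclear protein that binds RNA and DNA. The siCTRL group was transfected with a control siRNA and the siSFPQ group with siRNA targeting SFPQ at 30 nM, with 3 libraries of polyadenylated RNA in each group, which the study describes as biological replicates. The time between transfection and RNA extraction is not given in the labels, and the cells were of a single line, so p-values measure the spread between these cultures. No interferon treatment is named for either group.

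Type I interferons are secreted proteins that bind a receptor made of IFNAR1 and IFNAR2. The kinases TYK2 and JAK1, held by these chains, then phosphorylate STAT proteins, and STAT2 with a second STAT and IRF9 forms ISGF3, which binds interferon-stimulated response elements in the promoters of antiviral genes. IRF7, itself an interferon-stimulated gene, drives further interferon transcription, while USP18 and SOCS1 limit signalling at the receptor and at its kinases.

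SFPQ counts were 22338, 23139 and 21753 in siCTRL and 3140, 3863 and 3151 in siSFPQ, a log2 fold change of -2.73 (SE 0.050). Levels are given as CPM, counts scaled to a common library size. Library totals lay between 46142855 and 47119203 counts in siCTRL and between 43469321 and 45543610 in siSFPQ. Of the osteoblast and mesenchymal markers, COL1A1, SPARC, VIM and RUNX2 had over 1000 counts in every library, while COL1A2 had 31 to 55 counts and IBSP 1 count in all. Of the 7 tested in that list of 8, VIM rose (log2 fold change 0.32), COL1A1 (-0.35), SPARC (-0.17) and SPP1 (-1.33) fell and 3 did not pass, and its summed level lay between 5985 and 6314 CPM in siCTRL and between 5476 and 5497 CPM in siSFPQ. Summed markers of blood and immune cells lay between 128 and 145 CPM in siCTRL and between 33.5 and 38.5 in siSFPQ, nearly all from NCAM1. Of that list of 10, CD3E, LYZ and HBB had at most 5 counts in any library, 2 genes fell and 2 rose. Of 5 epithelial markers 3 rose (CDH1, KRT8 and KRT18) and 0 fell, while EPCAM and KRT19 did not pass. The summed level of the 5, nearly all from KRT8 and KRT18, went from between 328 and 344 CPM to between 727 and 796 CPM. Of 4 endothelial markers 2 rose and 0 fell, at summed levels of 4.47 to 5.97 CPM and 6.90 to 7.48 CPM. At the same threshold, an adjusted p under 0.05, 22.4% of all genes tested rose and 22.1% fell. The part of these cell type markers in the changes below was not tested.

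Of the 9 genes, SOCS1 was the one whose RNA fell, to 44.5% of its siCTRL level, and none rose. For IFNAR1, JAK1, TYK2 and STAT2 the 95% intervals of the siSFPQ level lay between 92.4% and 109% of siCTRL, while IFNAR2, IRF9 and IRF7 had few counts and wide intervals. All 9 genes passed the filter of at least 10 counts in total. With a threshold of 0.05 on the adjusted p of edgeR (quasi-likelihood fit over 29022 genes), 0 of the 9 rose, against 22.4% of all genes tested, and 1 of the 9 fell, against 22.1%. DESeq2 gave the same numbers, and at an unadjusted p under 0.05 they were also 0 and 1 with either tool. With the study's fold threshold of 1.5 on the log2 scale added, 0 of the 9 were called in either direction, against 5.54% of all genes tested that were higher and 4.77% that were lower. The 3 libraries of each condition did not overlap for 2 of the 9, IFNAR1 and SOCS1, against 52.3% of all genes tested. The median log2 fold change of the 9 was -0.03 and the median of its absolute value 0.25, compared with 0.02 and 0.43 over all genes tested. Among the 12958 protein-coding genes with a mean of at least 1 CPM these medians were -0.02 and 0.26.

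**Figure D1:**
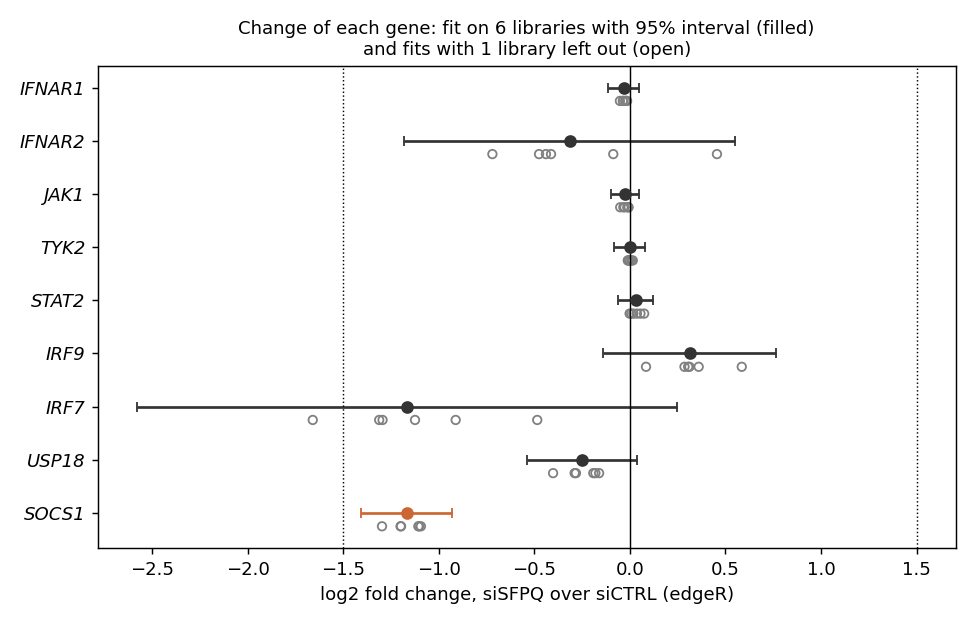
Each filled point is a gene's log2 fold change, siSFPQ over siCTRL, with its 95% interval, open points are the same value with 1 of the 6 libraries left out, and dotted lines mark the fold threshold of 1.5. IFNAR1, JAK1, TYK2 and STAT2 lie close to 0 with narrow intervals, IFNAR2, IRF9 and IRF7 have wide ones, and the interval of SOCS1 (-1.41 to -0.93) is the only one drawn in orange, for an adjusted p under 0.05.

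How much of each transcript is shared with other genes differed among the 9. On the MANE Select transcript (a single reference isoform per gene), 93.1% of the 4074 bases of IFNAR2 and 93.1% of the 1626 bases of IRF9 lie under exons of another gene in GENCODE release 44 on GRCh38. For IFNAR2 these are 2001 bases shared with the read-through gene IFNAR2-IL10RB on the same strand and 1792 shared with the long non-coding RNA IL10RB-DT on the opposite strand. For IRF9 they are 1513 bases shared with ENSG00000259529 on the same strand, 308 of which also lie under ENSG00000289757 on the opposite strand. JAK1 shared 4 bases with RAVER2 on the opposite strand, and the other 6 genes shared none.

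Genes with almost all of their annotated exon bases covered in this way were nearly missing from the counts. Among 293 protein-coding genes with at least 97% of their exon bases under exons of the same strand alone, 4 (1.37%) reached 10 counts in total. Of 16 such genes covered on the opposite strand alone, 0 reached 10 counts, and their highest total was 7. Among 10499 protein-coding genes that share no exon base, 79.0% reached 10 counts, with a median total of 1722. The read-through gene IFNAR2-IL10RB itself had 1 count in all 6 libraries. The bases left to the MANE Select transcript of IFNAR2 were 46 in exon 2 and 235 in exon 9 of 9 (chr21:33241840-33241885 and chr21:33263638-33263872). Those left to that of IRF9 were 113 in the last of its 9 exons (chr14:24166453-24166565), and all of these lie outside the coding sequence. Over all annotated exons, 27.7% of the 13865 bases of IFNAR2 and 27.2% of the 6471 bases of IRF9 were shared. Counts were per gene, so reads over unshared exons of other isoforms could be counted as well. Over all annotated exons, IFNAR2 and IRF9 lie well below the 97% cover used above, and a loss of their reads to sharing was not tested. The counts of IFNAR2 and IRF9 were not read as a measure of the abundance of these RNAs relative to the other 7. The changes of IFNAR2 and IRF9 rest on few reads.

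The receptor chains did not pass the test. IFNAR1 (chr21:33324387-33359864, plus strand, 11 exons) encodes the chain that holds TYK2. Its counts were 3575, 3646 and 3583 in siCTRL and 3432, 3629 and 3538 in siSFPQ. After division by effective library size and scaling to a common size (normalized counts), these gave 3607 ± 34.3 and 3527 ± 32.7 (mean ± SD, n = 3). All 3 siSFPQ values lay below all 3 siCTRL values, but by little: the level in siSFPQ was 97.8% of that in siCTRL, with a 95% interval from 92.4% to 103% (log2 fold change -0.03, SE 0.040, adjusted p = 0.560). IFNAR2 (chr21:33205282-33265675, plus strand) encodes the chain that holds JAK1 and binds interferon with high affinity. Its counts were 47, 9 and 21 in siCTRL and 23, 25 and 14 in siSFPQ, so that siCTRL held both the highest and the lowest library. The log2 fold change was -0.31 (SE 0.425, adjusted p = 0.597), with an interval from -1.18 to 0.55, and it became 0.46 without siCTRL replicate 1, the highest library (adjusted p = 0.438).

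The kinases did not pass the test either, and their intervals were narrow. JAK1 (chr1:64833223-65067754, minus strand, 25 exons), which also serves many cytokine receptors, had 8222, 8406 and 8147 counts in siCTRL and 7852, 8424 and 8149 in siSFPQ. The groups overlapped, and the level in siSFPQ was 98.3% of that in siCTRL (95% interval 93.3% to 103%, adjusted p = 0.622). TYK2 (chr19:10350533-10380608, minus strand, 25 exons), the kinase held by IFNAR1, had 3262, 3287 and 3343 counts in siCTRL and 3187, 3345 and 3381 in siSFPQ, again with overlap. The level in siSFPQ was 99.9% of that in siCTRL, with an interval from 94.3% to 106% (adjusted p = 0.983).

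Of the ISGF3 subunits, STAT2 was abundant and IRF9 sparsely counted. STAT2 (chr12:56341597-56360203, minus strand, 24 exons), the STAT that carries the transactivation domain of the complex, had 4064, 3960 and 4384 counts in siCTRL and 4313, 4192 and 4197 in siSFPQ. The libraries of both conditions were interleaved, and the level in siSFPQ was 102% of that in siCTRL (95% interval 95.9% to 109%, adjusted p = 0.632). IRF9 (chr14:24161234-24168043, plus strand), the subunit that recognises the response element, had 40, 61 and 82 counts in siCTRL and 78, 71 and 79 in siSFPQ. The siSFPQ libraries were close together and lay within the siCTRL range once normalized. The log2 fold change of IRF9 was 0.31 (SE 0.223, adjusted p = 0.275), with an interval from -0.14 to 0.77. Without siCTRL replicate 3, the highest library, it was 0.59 with an adjusted p of 0.0490, and without siCTRL replicate 1, the lowest, it was 0.08.

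IRF7 (chr11:612553-615983, minus strand, 11 exons) had 2, 20 and 12 counts in siCTRL and 3, 6 and 6 in siSFPQ. A single siCTRL library was the lowest of all 6 and the other two siCTRL libraries were the highest. The fitted log2 fold change of -1.17 had a standard error of 0.693 and an interval from -2.58 to 0.24 (adjusted p = 0.181). Without siCTRL replicate 1, the lowest library, it was -1.66 with an adjusted p of 0.0217, and without siCTRL replicate 2, the highest, it was -0.49 with an adjusted p of 0.684. At the library totals given above, such numbers put IRF7 near the lower limit of what was detectable.

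The inhibitors differed from each other. USP18 (chr22:18150118-18177397, plus strand, 11 exons) encodes a protease that removes ISG15 from proteins and also binds IFNAR2, where it displaces JAK1. Its counts were 159, 161 and 184 in siCTRL and 128, 170 and 127 in siSFPQ. Replicate 2 of siSFPQ lay among the siCTRL libraries and the other two siSFPQ libraries lay below them. The level in siSFPQ was 84.0% of that in siCTRL (95% interval 68.8% to 103%, log2 fold change -0.25, adjusted p = 0.156), and without siSFPQ replicate 2 the log2 fold change was -0.40 with an adjusted p of 0.0415. USP18 shares sequence with USP41, which is 98.7% identical over 917 bases and had 8, 26 and 14 counts in siCTRL and 2, 8 and 9 in siSFPQ (adjusted p = 0.0637). Reads could be split between them, and the counts of both genes together gave a log2 fold change of -0.32 (adjusted p = 0.0583). Copies at ENSG00000288811 and ENSG00000290950, 99.7% and 99.0% identical over 627 and 675 bases, have no row in the count table.

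SOCS1 (chr16:11254417-11256204, minus strand, 2 exons), an inducible inhibitor that binds and blocks JAK kinases, was the gene that fell. Its counts were 429, 437 and 322 in siCTRL and 158, 184 and 188 in siSFPQ. The lowest siCTRL library, replicate 3, was still above every siSFPQ library, and the siSFPQ libraries lay closer together than the siCTRL libraries. Normalized counts went from 397 ± 63.9 to 176 ± 11.7 (mean ± SD, n = 3), and the level in siSFPQ was 44.5% of that in siCTRL (95% interval 37.6% to 52.5%). The log2 fold change was -1.17 (SE 0.118, adjusted p = 3.41e-10), short of the study's threshold of -1.5. With 1 library left out it ranged from -1.30 to -1.09, past the adjusted p in each case. In these cultures, fewer cells expressing SOCS1 and less SOCS1 RNA per cell cannot be told apart.

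**Figure D2:**
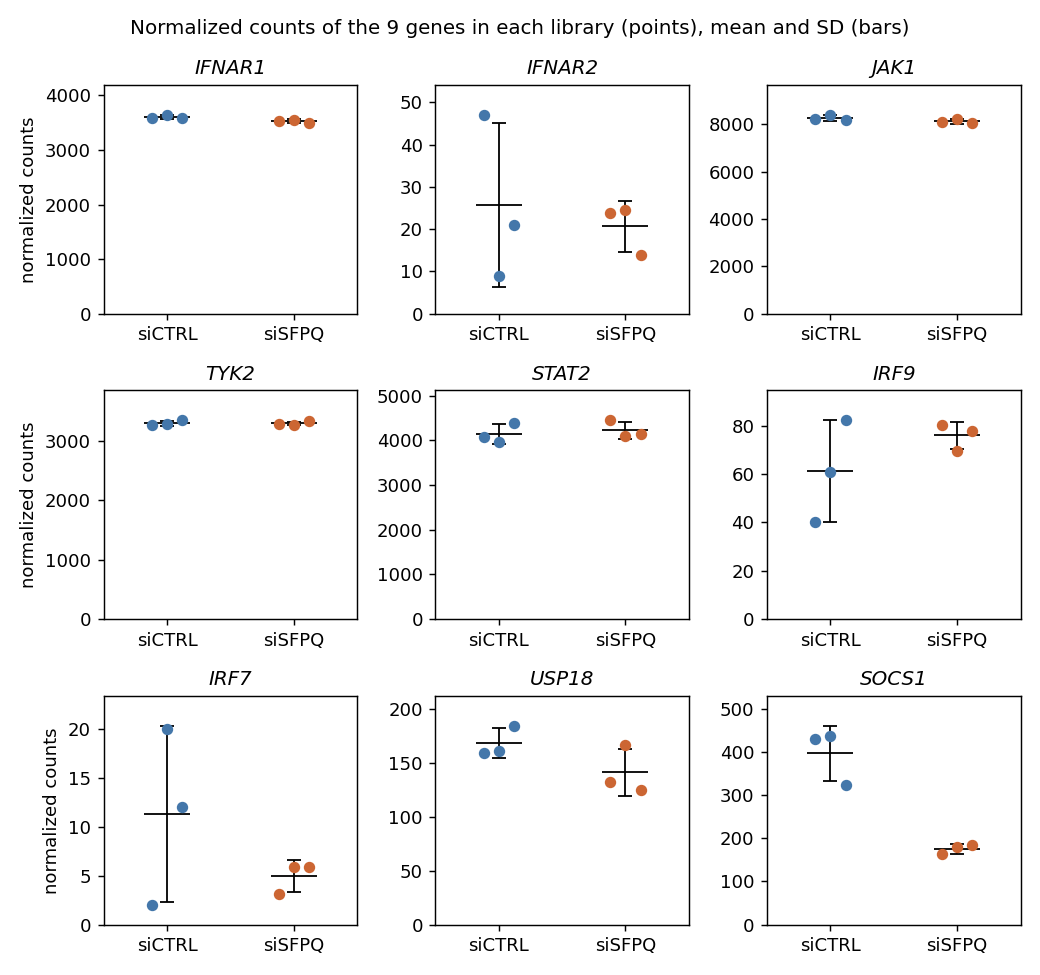
Each panel gives a gene's normalized counts (vertical axis, from 0) in the 3 siCTRL and 3 siSFPQ libraries as points, with the mean and SD as bars. SOCS1 is the panel with a wide gap between conditions (397 and 176 on average), the means of IFNAR1 differ by little, and the other 7 panels overlap.

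The promoter windows of RefSeq, which span 250 bases before to 50 bases after a gene's start on GRCh38.p14, hold 9 windows for 6 of the 9 genes (IFNAR1, JAK1, TYK2, STAT2, IRF9 and SOCS1). They were searched on both strands for the core of the interferon-stimulated response element, GAAANNGAAA, and of the gamma-activated site, TTCNNNGAA, which STAT dimers bind. Among 35116 windows of all genes, 3.57% hold the first and 7.66% the second. SOCS1 held the first, 113 to 104 bases before its start, and IRF9 held the second, 63 to 55 bases before its start. These letters did not occur in the other 7 windows. The windows of SOCS1 (chr16:11256155-11256454, minus strand), the gene that fell, and of IRF9 (chr14:24161015-24161314, plus strand), which did not pass the test, are shown from 5′ to 3′ because they hold the matches, given in capitals.
SOCS1: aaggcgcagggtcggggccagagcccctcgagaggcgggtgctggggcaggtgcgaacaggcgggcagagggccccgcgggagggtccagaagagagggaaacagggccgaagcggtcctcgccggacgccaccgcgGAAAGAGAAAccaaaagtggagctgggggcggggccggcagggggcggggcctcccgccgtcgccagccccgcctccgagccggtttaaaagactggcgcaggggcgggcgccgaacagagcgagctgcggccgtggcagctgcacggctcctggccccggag
IRF9: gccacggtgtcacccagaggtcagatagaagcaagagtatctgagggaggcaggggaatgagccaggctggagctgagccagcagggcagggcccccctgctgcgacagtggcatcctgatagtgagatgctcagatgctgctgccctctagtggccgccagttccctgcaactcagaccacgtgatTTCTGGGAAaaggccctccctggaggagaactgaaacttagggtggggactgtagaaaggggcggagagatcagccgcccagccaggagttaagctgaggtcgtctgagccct
The matches describe sequence and were not measured here as bound sites.

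Genes whose values across the 6 libraries lay nearest to those of SOCS1 were sought among 12958 protein-coding genes, by the distance between their log2 CPM relative to the siCTRL mean. Nearest were CACNA1G, a T-type calcium channel subunit (distance 0.181), ZNF738, a zinc finger gene (0.220), VCAN, which encodes the matrix proteoglycan versican (0.224), PXYLP1 (0.256) and the diacylglycerol kinase DGKH (0.280). Their log2 fold changes lay between -1.15 and -1.07. VCAN, for example, had 165, 175 and 122 counts in siCTRL and 70, 72 and 71 in siSFPQ, with the same library, siCTRL replicate 3, as the lowest of its group. Such likeness to SOCS1 follows from the way these genes were chosen.

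Levels of the 7 genes whose transcripts share few or no bases were set against each other as CPM per kilobase of annotated exon. In siCTRL the mean level was 13.7 for JAK1, 9.73 for STAT2, 8.47 for TYK2, 5.03 for IFNAR1, 4.85 for SOCS1, 0.898 for USP18 and 0.0949 for IRF7. The libraries of IFNAR1 and SOCS1 overlapped, and those of the other neighbours in this order did not. In siSFPQ the order was the same, from 13.5 for JAK1 to 0.0415 for IRF7, and no neighbours overlapped, with SOCS1 at 2.15 and IFNAR1 at 4.92. The overlap of IFNAR1 and SOCS1 in siCTRL depends on the length used: per kilobase of MANE Select transcript, a scale chosen after seeing the data, SOCS1 was already below IFNAR1 in siCTRL (7.00 and 13.0), with no overlap, and stood at 3.11 beside 12.7 in siSFPQ. The level of USP18 may be too low where its reads also match its near-identical copies. IRF9 and IFNAR2 were not placed in this order. Their levels per kilobase of annotated exon were 0.206 and 0.0405 in siCTRL. With all counts of the gene divided by the unshared MANE Select bases alone, IRF9 had 7.75 to 15.9 and IFNAR2 0.700 to 3.66. Those counts can include reads over other exons, so values on this last scale can be too high.

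RNA of the ligands was at the limit of detection. IFNB1, the first interferon made by most infected cells, had 0 counts in all 6 libraries, which allows a level of up to between 0.0637 and 0.069 CPM per library, the level of 3 counts. Of 17 type I interferon genes, 13 had 0 counts in every library, and all 17 together had 16 counts. The 1 gene tested was IFNE, an interferon of epithelia named here after its values were seen, with 2, 4 and 4 counts in siCTRL and 0 in every siSFPQ library (adjusted p = 0.0249). That call rests on 10 reads and was lost with DESeq2 and without any 1 of the siSFPQ libraries (adjusted p = 0.0647 to 0.0820), and no fold is given.

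Most receptor chains of the other interferon classes rose. Of 8 other ligands and chains, 4 could be tested, of which 3 rose and 1 fell, with a median log2 fold change of 0.76. The shares over all genes tested were 22.4% and 22.1%. IFNLR1, the chain particular to type III interferon, had 243, 242 and 259 counts in siCTRL and 512, 537 and 573 in siSFPQ, with no overlap (log2 fold change 1.12, adjusted p = 3.00e-12). Its partner IL10RB, which shares exons with the IFNAR2 read-through gene, rose from 17, 27 and 23 counts to 48, 54 and 47 (log2 fold change 1.14, adjusted p = 0.00132). For the receptor of type II interferon, IFNGR1 rose (log2 fold change 0.41) and IFNGR2 fell (-0.18).

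Relatives of the kinases and STATs were divided. Of 8 other JAK and STAT genes, 3 rose, 2 fell and 3 did not pass, with a median log2 fold change of 0.23. Over all genes tested, 22.4% rose and 22.1% fell. JAK3, the kinase of the common gamma chain receptors, had 286, 248 and 276 counts in siCTRL and 626, 660 and 651 in siSFPQ (log2 fold change 1.25, adjusted p = 5.44e-14). STAT6, used by interleukin-4, rose by 0.54 on the log2 scale and STAT3, used by interleukin-6, by 0.32, while STAT5B fell by 0.24. Of 7 other IRF genes, 3 rose, 1 fell and 3 did not pass, beside the same shares over all genes, with a median of 0.14. IRF1, an activator induced by interferon, had 348, 295 and 334 counts in siCTRL and 696, 597 and 653 in siSFPQ (log2 fold change 0.99). IRF8 rose by 0.80 and IRF3, the factor that sets off IFNB1 transcription, by 0.14 on the same scale, a call that IRF3 lost without siCTRL replicate 2 or siSFPQ replicate 2 (adjusted p = 0.0842 and 0.0698). The gene that fell was IRF4, named after its values were seen, with 13, 12 and 6 counts in siCTRL and 0, 2 and 2 in siSFPQ (adjusted p = 0.00881), and that call was lost without siSFPQ replicate 1 (adjusted p = 0.0507).

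Among 19 other negative regulators, 7 rose, 7 fell and 5 did not pass, with a median log2 fold change of 0.09. Over all genes tested, 22.4% rose and 22.1% fell. ISG15, a ubiquitin-like protein that stabilises USP18, had 427, 373 and 500 counts in siCTRL and 1006, 1106 and 1246 in siSFPQ (log2 fold change 1.36, adjusted p = 3.22e-15). PTPN2, a phosphatase that acts on JAK and STAT proteins, went from 2555, 2770 and 2803 counts to 1172, 1284 and 1249 (log2 fold change -1.14, adjusted p = 2.79e-19), close in size to the fall of SOCS1. CISH, a SOCS family member, rose by 0.65 on the log2 scale, and PIAS1, a SUMO ligase that restrains STATs, fell by 0.37. PIAS1 shares 32.7% and IRF1 22.9% of its annotated exon bases with other genes, so that part of their reads may be missing from the counts. The other SOCS genes, named after their values were seen, went in both directions: SOCS3, SOCS4, SOCS6 and SOCS7 rose by 0.13 to 0.22, SOCS5 fell by 0.22, and SOCS2 had a log2 fold change of 0.12 that did not pass the test. The call of SOCS3 was lost with DESeq2, with no count filter and without siCTRL replicate 2 or siSFPQ replicate 3 (adjusted p = 0.0522 to 0.0826).

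Target genes of ISGF3 more often rose than fell. Of 40 such genes, all of them tested, 26 rose, 3 fell and 11 did not pass, beside 22.4% higher and 22.1% lower of all genes tested. Past the fold threshold of 1.5 were 3 of those that rose, beside 5.54% of all genes tested. The median log2 fold change of the 40 was 0.38, beside 0.02 over all genes tested. The list was chosen with results of these data known, so it is no independent evidence of a direction. IFI44L, an interferon-induced gene, had 141, 109 and 150 counts in siCTRL and 502, 508 and 578 in siSFPQ (log2 fold change 1.98, SE 0.114, adjusted p = 2.90e-16). UBA7, the enzyme that activates ISG15 for conjugation, rose by 1.70 on the log2 scale, and PSMB9, an immunoproteasome subunit, by 1.60. TAP1, a peptide transporter for antigen presentation, went from 1110, 1049 and 1161 counts to 2475, 2347 and 2585 (log2 fold change 1.15). The 3 genes that fell, named after their values were seen, were SAMD9 (-0.33), its neighbour SAMD9L (-0.35) and LGALS9 (-1.02), which had 11 to 31 counts in each library. The call of LGALS9 (adjusted p = 0.0338) was lost with DESeq2. It was also lost without siCTRL replicate 2 or 3 or siSFPQ replicate 1 or 3 (adjusted p = 0.0974 to 0.127 over these settings). Some calls among the genes that rose, also named after their values were seen, were lost too. RIGI and BST2 lost theirs in 6 alternatives each, OAS3 in 5 and ADAR in 1.

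Of 10 genes that act upstream, in the activation of IRF3 and IRF7, 5 rose, 2 fell and 3 did not pass. The median log2 fold change of these 10 was 0.11, and over all genes tested 22.4% rose and 22.1% fell. IKBKE, a kinase of both factors, had 550, 471 and 572 counts in siCTRL and 958, 1014 and 995 in siSFPQ (log2 fold change 0.89, adjusted p = 5.16e-12). The adaptors TICAM1 and MYD88 of Toll-like receptors rose by 0.48 and 0.43 on the log2 scale, and TRAF3 fell by 0.29.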

How the data were processed

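The authors prepared stranded polyadenylated RNA libraries, read from both ends, ran FastQC on the reads, used STAR 2.7.9a with Ensembl GRCh38 and deposited raw counts per gene, without normalization. The strand setting of counting is not given in the sources used here. All 6 columns carry a sample's own name.

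Genes with at least 10 counts in total entered a quasi-likelihood fit of the condition alone (edgeR 4.0.16, TMM factors, R 4.3.3), and p-values were adjusted by Benjamini-Hochberg over all 29022 of them. Standard errors come from the fold change and the test statistic. On counts simulated from these libraries, 200 of 28178 genes were changed by 2 on the log2 scale. Of these, 198 were called, with 2 others. Calls in this simulation also had to pass the fold threshold of 1.5, and the changed genes were drawn from those averaging over 1 CPM. The simulation therefore does not measure how calls by adjusted p alone perform, or calls for sparsely counted genes such as IFNAR2 and IRF7. Reads, not molecules, were counted, and floors cover counting error only.

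The members and lists were chosen with earlier results of these data known. Named are the members, SFPQ, genes that overlap or copy a member, IFNB1, up to 4 genes of each list with the largest log2 fold change (adjusted p under 0.05, a mean of at least 1 CPM, no overlap between conditions) and the 5 genes nearest to the member with the largest change. Other names are said to be chosen later. A gene of the list of JAKs and STATs is not reported here by name. Gene models are from GENCODE release 44, which holds 99.7% of the identifiers, and promoter sequences from RefSeq. Sequence copies were sought with at least 97% identity over 150 bases.

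Alternatives were DESeq2 1.42.0, RLE size factors, library size alone, filterByExpr, no filter, protein-coding genes only, a replicate block, a fold threshold of 1, sums over copies and each library left out. Replicates of a condition differed by more than sampling noise (chi-square over its degrees of freedom, 4.07 to 5.96).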

Additional observations from a re-analysis of the deposited data

How the results depend on the processing

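Over 14 alternatives to the test of the 9 genes, 105 of 118 log2 fold changes kept their direction and their side of an adjusted p of 0.05. SOCS1 stayed past it in all of them, from -1.30 to -1.09 with 1 library left out and from -1.18 to -1.11 otherwise. In 10 cases the sign of a value that did not pass changed, and 0 of these passed. With library size alone, which set the median of all genes at 0.08, IFNAR1 was at 0.031, JAK1 at 0.0379 and TYK2 at 0.0615. TYK2 was at 0.0028 with filterByExpr and 0.0088 with protein-coding genes only. With 1 library left out, the log2 fold changes ranged from -0.05 to -0.01 for IFNAR1, -0.72 to 0.46 for IFNAR2, -0.05 to -0.0076 for JAK1, -0.0112 to 0.015 for TYK2, -0.0017 to 0.0744 for STAT2, 0.0841 to 0.59 for IRF9, -1.66 to -0.49 for IRF7 and -0.40 to -0.16 for USP18. In 3 cases a gene passed that otherwise did not: IRF9 without siCTRL replicate 3, IRF7 without siCTRL replicate 1 and USP18 without siSFPQ replicate 2, and the cause was not tested. The number of the 9 called higher then ranged from 0 to 1, the number called lower from 1 to 2, and the number lower past the fold threshold from 0 to 1. A fold threshold of 1 on the log2 scale also gave 1, SOCS1. Among the other IRFs, the count that fell went from 1 to 0 with filterByExpr, which tests fewer genes, and ranged from 0 to 1 with 1 library left out, and the count that rose ranged from 2 to 3. Of the negative regulators, 8 rose and 5 fell with library size alone, and with 1 library left out 6 to 7 rose and 5 to 7 fell. Of the ISGF3 targets, 23 to 25 rose and 2 to 4 fell with 1 library left out, and 23 to 28 rose and 2 to 3 fell otherwise. Counts of the other 3 lists tested did not move. These list alternatives and the other lengths were chosen after seeing the data. filterByExpr left out IRF7. Low counts limit IFNAR2, IRF9 and IRF7.

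With the replicate number as a replicate block, SOCS1 was at -1.16 and 0 of the 9 rose and 1 fell, so the block changed no call among them, and IFNE lost its call (adjusted p = 0.0596). Same-numbered libraries did not deviate together (correlations from -0.03 to 0.07), so the numbers were not read as pairs.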
